A study of Mus musculus with 4 samples.

Results

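The genes described here are the coactivators of the Hippo pathway, Yap1 and Wwtr1 (which encodes TAZ), the TEAD transcription factor genes Tead1 and Tead3, the angiomotin-like genes Amotl1 and Amotl2, and 4 genes that YAP and TAZ are known to drive, Ankrd1, Axl, Ccn1 (formerly Cyr61) and Ccn2 (formerly Ctgf). They were taken by gene symbol, and all 10 were found among the 56748 genes of the count table. Lungs carrying metastases of 4T1, a mouse triple-negative breast cancer (TNBC) line, were taken from female BALB/cJ mice that had been injected intravenously at 7 weeks of age with luciferase-expressing 4T1 cells. The control mice (2 libraries) received saline, although the treatment label of these samples says PBS. The treated mice (2 libraries) received cmLumiOpto/PARPi for 3 weeks. This is an exosome-associated AAV bearing an anti-CD276 antibody, which carries the mitochondria-targeted cmLumiOpto genes under the tumour-selective cfos promoter, given with ViviRen (2 mg/kg), the luciferase substrate, and with olaparib (50 mg/kg), which inhibits PARP. Mice given the vector alone or olaparib alone were not analysed here, so the parts of the combination cannot be told apart. The labels name tumour cells harvested from lungs and the methods name whole lung tissue, so the libraries may hold RNA of the tumour line and of host lung.

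In the Hippo pathway the MST kinases (Stk3, Stk4) activate the LATS kinases, and LATS phosphorylates YAP and TAZ, which are then held in the cytoplasm or degraded. Unphosphorylated YAP and TAZ enter the nucleus and, having no DNA-binding domain of their own, act through TEAD proteins on genes of matrix, adhesion and growth. This control acts mainly on protein, so that RNA levels of Yap1 and Wwtr1 do not report activity, for which target transcripts such as Ccn1, Ccn2 and Ankrd1 are commonly read. Angiomotins bind YAP and TAZ at cell junctions, and Amotl2 is itself a target. The comparison addresses whether the target RNAs follow those of the pathway.

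TEAD proteins bind the letters CATTCC, or GGAATG on the other strand. These letters were searched on both strands in the 250 bases before each RefSeq transcription start (GRCm38.p6), and 12.6% of all 32851 such windows held them. Of the 10 genes 8 had a window, and Tead1 and Ccn2 had none. In 7 of these 8 at least 1 window held the letters, against 3880 of all 27025 genes with a window. By window it was 9 of 11, as some genes have several starts. The windows of Wwtr1 overlap and hold the same site. The 3 target genes with a window, Ankrd1, Axl and Ccn1, all held them, and the window of Amotl1 did not. The windows of both coactivators and of Axl and Ccn1 are shown 5′ to 3′ on the strand of the gene, with the TEAD letters in capitals, since these 4 genes span both sides of the comparison. That of Yap1 overlaps by 17 bases an exon of the neighbouring Gm45494 and the others lie outside annotated exons.
Yap1 (chr9:8004597-8004846, minus strand): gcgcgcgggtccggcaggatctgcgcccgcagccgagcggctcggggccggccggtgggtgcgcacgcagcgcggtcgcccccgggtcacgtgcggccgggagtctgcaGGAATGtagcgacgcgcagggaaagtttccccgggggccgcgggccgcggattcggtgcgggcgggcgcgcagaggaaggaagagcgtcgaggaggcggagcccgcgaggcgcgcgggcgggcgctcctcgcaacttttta
Wwtr1 (chr3:57575911-57576160, minus strand): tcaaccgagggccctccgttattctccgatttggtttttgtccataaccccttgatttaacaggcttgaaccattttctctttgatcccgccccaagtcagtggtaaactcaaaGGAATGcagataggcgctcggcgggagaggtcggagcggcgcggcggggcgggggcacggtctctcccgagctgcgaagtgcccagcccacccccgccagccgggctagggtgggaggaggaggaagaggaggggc
Axl (chr7:25788734-25788983, minus strand): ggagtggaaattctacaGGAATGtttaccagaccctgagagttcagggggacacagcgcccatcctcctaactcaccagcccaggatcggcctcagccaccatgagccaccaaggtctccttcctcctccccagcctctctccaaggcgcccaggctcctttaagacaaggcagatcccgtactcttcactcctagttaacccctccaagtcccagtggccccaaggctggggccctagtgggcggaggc
Ccn1 (chr3:145649986-145650235, minus strand): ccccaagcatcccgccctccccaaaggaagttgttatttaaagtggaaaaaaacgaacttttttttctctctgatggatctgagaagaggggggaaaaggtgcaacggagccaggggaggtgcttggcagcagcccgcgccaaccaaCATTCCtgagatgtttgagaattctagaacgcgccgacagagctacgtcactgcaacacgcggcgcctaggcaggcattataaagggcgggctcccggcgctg
In Ankrd1, whose window lies within annotated Ankrd1 exon sequence, the letters occurred at 2 places, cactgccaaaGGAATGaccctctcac and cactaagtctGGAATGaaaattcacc, which start 210 and 123 bases before the RefSeq start. In Amotl2 they occurred once, as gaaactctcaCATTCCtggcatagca, and in Ccn1 they start 103 bases before the start. Such a match is a description of the letters, not of binding. Among 17 further target genes, 11 had a window and 2 of these held the letters (2 of 13 windows, 15.4%), and among the other Hippo pathway genes 9 of 36 windows did (25%).

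The gene counts summed to between 15263375 and 16755228 per library, and 3 counts corresponded to between 0.173 and 0.204 CPM (counts relative to the TMM-scaled library size). All 10 genes lay far above this floor and passed the filter on low counts. Keratin and adhesion genes of epithelial tumours, which lung epithelium also expresses, were present in every library, with 3011 and 3390 CPM summed over 7 markers in the saline libraries and 2690 and 3849 CPM in the treated ones. Lung markers were present too and differed between the groups. All 4 airway club cell markers and 5 of 7 alveolar type 1 markers were higher in both treated libraries, the former with 81.5 to 1151 CPM summed in saline and 3118 to 5692 CPM after treatment. Of the 7 fibroblast markers 6, among them the collagen gene Col1a1, were lower in both treated libraries, with 3505 to 5091 CPM summed in saline and 1655 to 1846 CPM after treatment, and Tcf21 was higher. In such bulk tissue, fewer cells of a type and less RNA per cell cannot be told apart.

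Across the 10 genes, Tead1 and Amotl1 were at 0.51-fold and 0.50-fold of their saline level after cmLumiOpto/PARPi and Wwtr1 at 0.61-fold, whereas Yap1, Tead3 and the targets Ankrd1, Axl and Ccn1 lay closer to it. In 9 of the 10 the log2 fold change was below 0, against 48% of all tested genes. In 6 both treated libraries lay below both saline libraries, against 27.8% of all tested genes, in 0 they lay above (27.4%), and in 4 the groups overlapped (44.8%). None of the 10 passed an adjusted p of 0.05 in edgeR's quasi-likelihood test, nor did any of the 15167 genes tested (0%). At an unadjusted p under 0.05, 3 of the 10 passed (21.2% of all tested genes), all of them lower (12%) and 0 higher (9.21%). With upper-quartile scaling 2 were lower (7.82% of all tested genes). With the replicate number as a block and a gene-length correction 5 were lower (16.5%). The likelihood ratio and exact tests of edgeR and the Wald test of DESeq2 each called 2 of the 10, Tead1 and Amotl1, where they called 5.7%, 5.37% and 6.67% of all genes. Without the filter on low counts 3 of the 10 were called (7.86% of all genes), as they were with the replicate number as a block (12%) and with that block and a gene-length correction (8.28%). For the coactivator, TEAD and angiomotin-like genes together (6 genes) the median of the log2 fold changes was -0.51 and for the 4 targets -0.19, beside 0.02 over all tested genes. These medians are not corrected for gene length, in which the targets and the other genes differ, and were not read with the correction.

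**Figure D1:**
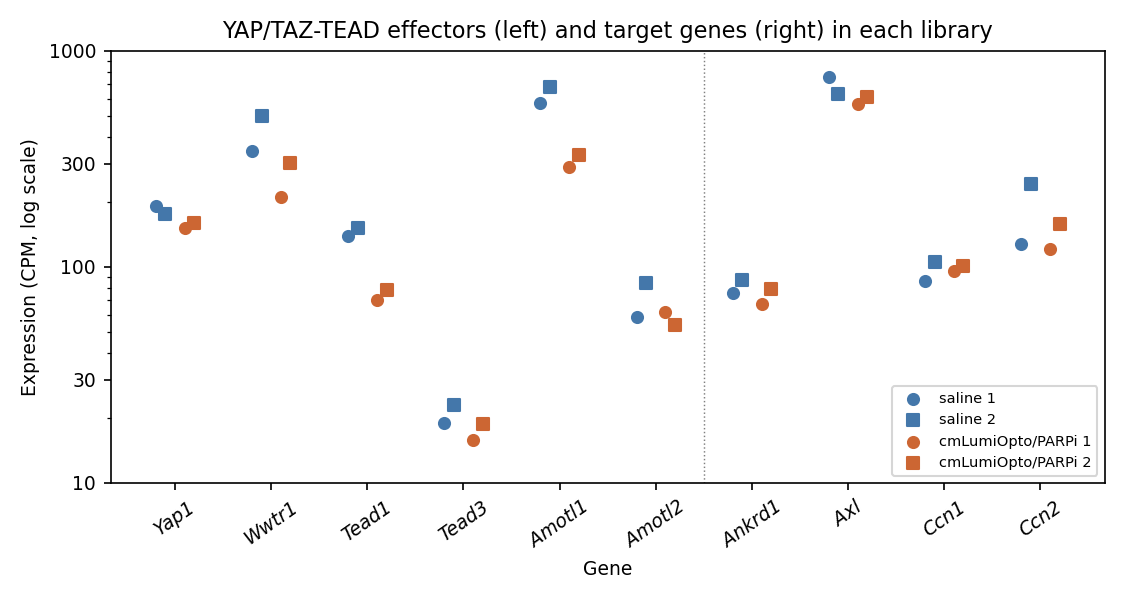
Expression of each of the 10 genes (CPM, log axis) in the 2 saline (blue) and 2 cmLumiOpto/PARPi (orange) libraries, each point being 1 library and the dotted line separating pathway genes from targets. Treated points of Tead1 and Amotl1 lie well below the saline points, while those of Ccn1 lie between the saline points.

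Both coactivator genes had lower values after treatment. Coordinates here and for the other genes are those of GENCODE M21 on GRCm38. Yap1, on chromosome 9 from 7931999 to 8004596 (ENSMUSG00000053110), had 191 and 176 CPM in saline and 152 and 160 CPM after treatment. The groups did not overlap, but the gap was small, with a log2 fold change of -0.24 (95% interval -0.56 to 0.08, adjusted p = 0.339, edgeR). Wwtr1, on chromosome 3 from 57455649 to 57575910 (ENSMUSG00000027803), had 345 and 499.6 CPM in saline and 211 and 302 CPM after treatment. Both treated libraries were lower than both saline libraries, and the libraries of each group were themselves far apart. The log2 fold change of Wwtr1 was -0.72 (95% interval -1.35 to -0.08, unadjusted p = 0.0324, adjusted p = 0.202, edgeR), and it was -0.44 without saline replicate 2 and -0.48 without treated replicate 1. Per Yap1 count there were 1.80 and 2.83 Wwtr1 counts in saline and 1.39 and 1.89 after treatment. This ratio, which does not depend on scaling between libraries, overlapped between the groups.

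Of the TEAD genes Tead1 had the lowest log2 fold change before, but not after, a correction for gene length. Tead1, on chromosome 7 from 112679318 to 112906807 (ENSMUSG00000055320), had 139 and 151 CPM in saline and 70.2 and 78.0 CPM after treatment, a log2 fold change of -0.97 (95% interval -1.30 to -0.63, adjusted p = 0.138, edgeR). The difference between the groups was several times that within them. Tead3, on chromosome 17 from 28331671 to 28350817 (ENSMUSG00000002249), had 18.9 and 22.8 CPM in saline and 15.8 and 18.7 CPM after treatment. Its groups nearly touched, and the log2 fold change was -0.28 (95% interval -0.79 to 0.24). There were 7.32 and 6.62 counts of Tead1 for each count of Tead3 in saline and 4.45 and 4.17 after treatment, with no overlap between the groups. Over 2 libraries against 2, an exact two-sided permutation test of such a ratio cannot give a p below 0.333.

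The remaining TEAD genes completed the family. Tead2 had 115 and 121 CPM in saline and 63.0 and 92.4 CPM after treatment, with a log2 fold change of -0.60, which was -0.35 without treated replicate 1 and -0.93 without treated replicate 2. Tead4 had 13.7 and 14.5 CPM in saline and 8.69 and 10.3 CPM after treatment, with a log2 fold change of -0.57. Both were lower in both treated libraries, with unadjusted p-values of 0.0266 and 0.0490 and adjusted p-values of 0.191 and 0.235 in edgeR's quasi-likelihood test. With the length correction by a loess curve, the log2 fold changes were -0.68 for Tead1, -0.61 for Tead2 and -0.70 for Tead4. On a per-length scale (RPKM, CPM per kilobase of gene length), Tead2 made up the largest share of the summed TEAD level in every library, 58.8% and 57.6% in saline and 57.0% and 62.9% after treatment. The share of Tead1 was 25% and 25.4% in saline and 22.4% and 18.7% after treatment.

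Of the angiomotin genes, Amotl1 and Amot were lower in both treated libraries and Amotl2 was not. Amotl1, on chromosome 9 from 14541966 to 14645056 (ENSMUSG00000013076), had 572 and 678 CPM in saline and 290.2 and 330.4 CPM after treatment, a log2 fold change of -1.01 (95% interval -1.42 to -0.60, adjusted p = 0.138, edgeR). Amotl2, on chromosome 9 from 102716672 to 102733418 (ENSMUSG00000032531), had 58.4 and 84.6 CPM in saline and 61.7 and 54.1 CPM after treatment. The groups of Amotl2 overlapped, since saline replicate 1 lay below treated replicate 1, and the log2 fold change was -0.30 (95% interval -0.82 to 0.21), with -0.028 without saline replicate 2 and -0.56 without saline replicate 1. Amot, the founding member, was at a lower level, with 23.3 and 18.5 CPM in saline and 9.50 and 13.6 CPM after treatment, and a log2 fold change of -0.86 (unadjusted p = 0.0184, adjusted p = 0.174, edgeR). There were 9.80 and 8.01 counts of Amotl1 for each count of Amotl2 in saline and 4.70 and 6.11 after treatment, with no overlap between the groups.

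None of the 4 targets passed an unadjusted p of 0.05. Ankrd1, a nuclear cofactor of muscle and stressed cells on chromosome 19 from 36111961 to 36120099 (ENSMUSG00000024803), had 75.4 and 86.6 CPM in saline and 67.3 and 78.9 CPM after treatment. The groups overlapped, with a log2 fold change of -0.15 (95% interval -0.52 to 0.23, adjusted p = 0.605, edgeR), and it was -0.038 without treated replicate 1. Since heart muscle also expresses Ankrd1, 8 cardiac muscle markers were read beside it. Of these, 4 passed the filter, with Tnnt2 giving nearly all of their summed level, and Nppa, an atrial hormone gene, was at 0 in 3 libraries. Of the 4, 3 were higher in both treated libraries, but the summed cardiac markers overlapped, with 92.9 to 102 CPM in saline and 68.2 to 157 CPM after treatment, and their part in the level of Ankrd1 was not tested.

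Ccn1, a secreted matricellular protein gene on chromosome 3 from 145646976 to 145649981 (ENSMUSG00000028195), had 86.0 and 105 CPM in saline and 95.9 and 101 CPM after treatment. Both treated libraries lay between the saline libraries, with a log2 fold change of 0.04 (95% interval -0.33 to 0.41, adjusted p = 0.901, edgeR). Ccn2, its relative on chromosome 10 from 24595442 to 24598683 (ENSMUSG00000019997), had 128 and 243 CPM in saline and 122 and 158 CPM after treatment. The saline libraries alone spanned the value of treated replicate 2, and the log2 fold change of -0.41 (95% interval -1.19 to 0.38) became 0.11 without saline replicate 2. Per Ccn1 count there were 1.49 and 2.31 Ccn2 counts in saline and 1.27 and 1.57 after treatment.

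Axl, a receptor tyrosine kinase gene on chromosome 7 from 25757273 to 25788705 (ENSMUSG00000002602), had 753 and 634 CPM in saline and 567 and 609.9 CPM after treatment. The groups did not overlap, but the gap between them was smaller than the difference within the saline group. Its log2 fold change was -0.24 (95% interval -0.64 to 0.17, adjusted p = 0.435, edgeR). Per length, Axl had the highest level of the 10 genes in both groups, 138 ± 16.7 RPKM (SD, n = 2) in saline and 117 ± 6.08 RPKM (SD, n = 2) after treatment. It was followed in saline by Wwtr1 with 88.4, Ccn2 with 64.8, Amotl1 with 62.1, Ccn1 with 47.4, Ankrd1 with 28.1, Yap1 with 19.9, Amotl2 with 11.4, Tead1 with 10.7 and Tead3 with 3.11 RPKM. The saline libraries of Wwtr1 and Ccn2 overlapped, as did those of Ccn2 and Amotl1, of Ccn2 and Ccn1 and of Amotl2 and Tead1. After treatment Amotl1 had 30.8 RPKM and came after Ccn1, which had 48.7, and the order was otherwise the same, with Wwtr1, Ccn2 and Ccn1 overlapping.

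Ratios of counts within a library do not depend on scaling between libraries. There were 0.621 and 0.697 counts of Ccn1 for each count of Tead1 in saline and 1.37 and 1.29 after treatment, and 0.544 and 0.574 counts of Ankrd1 in saline against 0.959 and 1.01 after treatment. Both ratios were higher in both treated libraries, with an exact two-sided permutation p of 0.333 each, the smallest that 2 libraries against 2 allow. They are ratios of a short to a long gene. Against Yap1 the groups were closer but did not overlap either. There were 0.450 and 0.597 counts of Ccn1 for each count of Yap1 in saline and 0.631 in each treated library.

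These genes also differ in length, and across all genes the log2 fold change differed with length. Tead1 (13570 bases), Amotl1 (10064 bases) and Yap1 (9257 bases) belong to the longest of 5 equal groups of tested genes, in which the median log2 fold change was -0.27. Ccn1 (2019 bases) belongs to the shortest, with a median of 0.31, and Ankrd1 (2886 bases) and Ccn2 (2861 bases) to the next, with a median of 0.15. Yap1 was therefore close to the median of genes of its length, while Tead1 and Amotl1 lay below it and Ccn1, Ankrd1 and Ccn2 lay below theirs. With the trend removed from each library by a loess curve on gene length, the log2 fold changes were -0.68 for Tead1 (95% interval -1.10 to -0.26), -0.80 for Amotl1 (95% interval -1.31 to -0.29), -0.73 for Wwtr1 and -0.05 for Yap1 (95% interval -0.47 to 0.36). Those of the targets were -0.35 for Ankrd1 (95% interval -0.82 to 0.12), -0.27 for Ccn1 (95% interval -0.74 to 0.20), -0.62 for Ccn2 and -0.23 for Axl. All 10 were then below 0, against 55.7% of all tested genes, whose median was -0.06, and the values of Tead1 and the targets lay closer together than before. None of the 10 passed an adjusted p of 0.05 with the correction either.

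**Figure D2:**
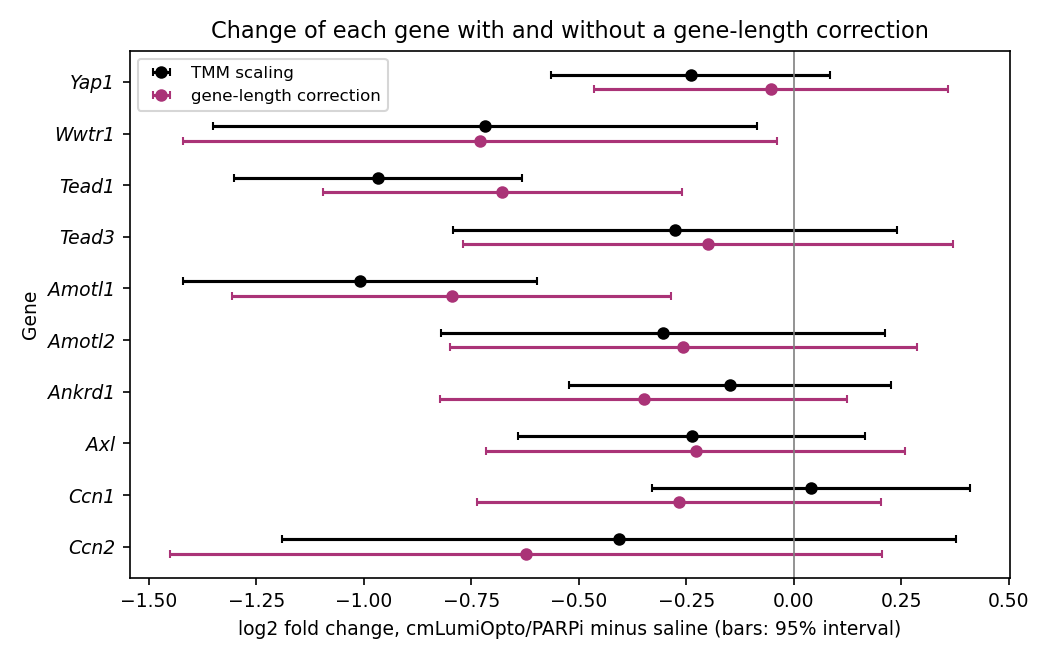
The log2 fold change of each gene (cmLumiOpto/PARPi minus saline, points) with its 95% interval (bars) after TMM scaling (black) and with the gene-length correction (purple). With the correction Ccn1 moves from 0.04 to -0.27 and Tead1 from -0.97 to -0.68, and the intervals of Wwtr1, Tead1 and Amotl1 stay below 0 on both scales.

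**Figure D3:**
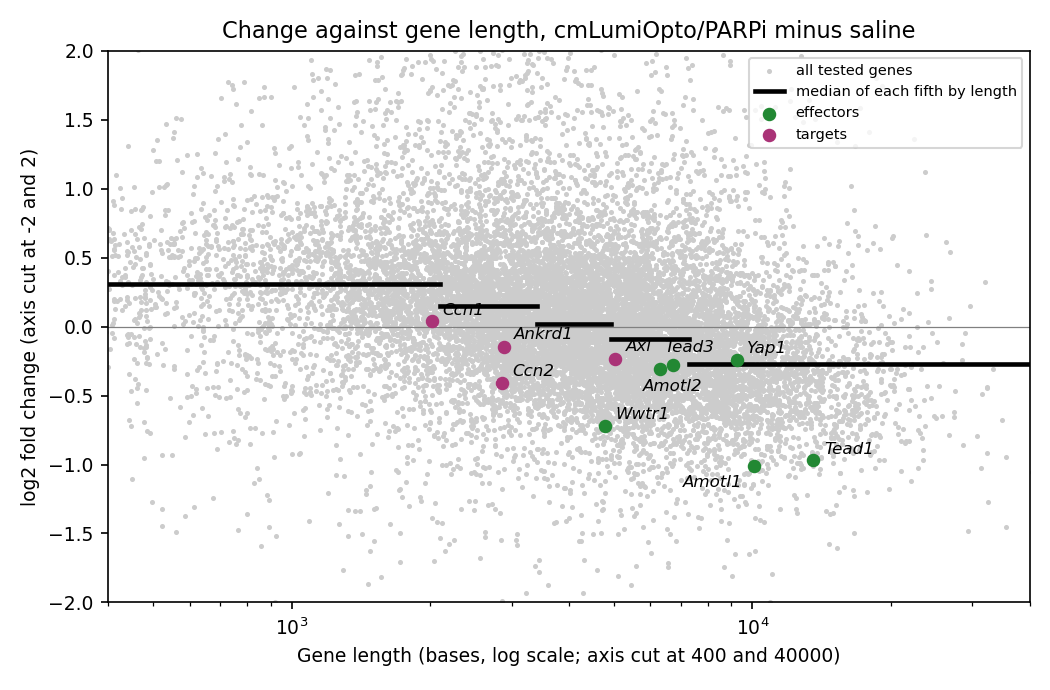
The log2 fold change of every tested gene (grey) against gene length in bases (log axis), with the median of each of 5 equal groups by length (black lines) and the 10 genes coloured as pathway genes (green) or targets (purple). The medians run from 0.31 in the shortest group to -0.27 in the longest, and Yap1 (-0.24) lies close to the median of its group, while Tead1 and Amotl1 lie below it.

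Other genes of the pathway were read from a list of 38, of which 36 passed the filter (Vgll1 and Vgll2, TEAD cofactor genes, had no counts). Of the 36, 31 had a log2 fold change below 0 (48% of all tested genes). With no overlap between the groups, 23 were lower (27.8%) and 1 was higher (27.4%). At an unadjusted p under 0.05, 16 were lower and 0 higher, against 12% and 9.21% of all tested genes. Without saline replicate 2 there were 8 lower (6.46% of all genes tested) and without treated replicate 1 there were 9 (7.67%). In all 4 libraries 0 passed the adjusted threshold in edgeR's quasi-likelihood test (0% of all tested genes). By DESeq2 6 passed (6.67%), and by the exact and likelihood ratio tests 3 each (5.37% and 5.7%). The median log2 fold change was -0.36. Junction and polarity genes had the lowest median (-0.65), with 8 of 9 lower in both treated libraries (27.8% of all tested genes). The kinases had the highest (-0.12), with 4 of 10. Most of the 36 are in the longer groups by gene length, and in the longest group 72.3% of tested genes were below 0. With the length correction the list median was -0.27. In that fit 12 were lower at an unadjusted p under 0.05 (8.43% of all tested genes). The medians by role were not read with the correction.

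Taok1, a kinase upstream of MST, had 132 and 148 CPM in saline and 85.3 and 89.7 CPM after treatment. Ptpn14, a phosphatase that binds YAP, had 68.3 and 72.6 CPM in saline and 45.9 and 40.3 CPM after treatment. Frmd6, a membrane scaffold gene, had 115 and 126 CPM in saline and 69.0 and 82.1 CPM after treatment. Each of these 3 was lower in both treated libraries, with log2 fold changes of -0.68, -0.71 and -0.67 and adjusted p-values of 0.138 in edgeR's quasi-likelihood test. With the length correction Taok1 (12421 bases) had -0.41, Ptpn14 (13413 bases) -0.43 and Frmd6 -0.61. In contrast, the polarity gene Crb3 had 3.32 and 0.545 CPM in saline and 9.96 and 5.17 CPM after treatment (unadjusted p = 0.0516), with a log2 fold change of 1.95 that was 3.76 without saline replicate 1 and 1.17 without saline replicate 2. Crb3 is an epithelial gene, and it was higher in the libraries in which the airway and alveolar markers listed above were higher too. The part of these cells in the result was not tested.

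Of the LATS kinases, which phosphorylate YAP and TAZ, Lats1 had 93.5 and 128 CPM in saline and 65.9 and 71.8 CPM after treatment, with a log2 fold change of -0.69 (unadjusted p = 0.0106, adjusted p = 0.150, edgeR), which was -0.46 without saline replicate 2. Lats2, which is also a YAP target, had 24.0 and 24.6 CPM in saline and 26.4 and 23.8 CPM after treatment, with a log2 fold change of 0.05 (95% interval -0.37 to 0.47). Of the MST kinases, Stk3 had a log2 fold change of -0.51 and Stk4 of -0.02. Within these pairs, 1 kinase was thus lower in both treated libraries and the other had overlapping groups.

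A wider list of 17 target genes, all tested, held genes with larger differences than the 4 targets above, although the lists were not compared by a test. Of these, 13 had a log2 fold change below 0 (48% of all tested genes), and the median was -0.32, or -0.43 with the length correction. With no overlap between the groups, 8 were lower (27.8%) and 1 was higher (27.4%). At an unadjusted p under 0.05, 6 were lower (12% of all tested genes) and 1 higher (9.21%), and with the length correction 7 were lower (8.43%). In edgeR's quasi-likelihood test 0 passed the adjusted threshold (0%). By DESeq2 5 passed (6.67%), and by the exact and likelihood ratio tests 5 each (5.37% and 5.7%). Asap1, a regulator of actin and adhesion, had 300.3 and 363 CPM in saline and 152 and 201 CPM after treatment, a log2 fold change of -0.91. Tgfb2, a TGF-β ligand gene, had 23.3 and 25.5 CPM in saline and 13.0 and 13.2 CPM after treatment, a log2 fold change of -0.89. Arhgef17, a guanine nucleotide exchange factor gene, had 121 and 144 CPM in saline and 72.2 and 87.6 CPM after treatment, a log2 fold change of -0.73. With the length correction the log2 fold changes were -0.79 for Asap1, -0.86 for Tgfb2 and -0.49 for Arhgef17. F3, the gene of tissue factor, went the other way, with 20.9 and 14.7 CPM in saline and 28.04 and 26.9 CPM after treatment, a log2 fold change of 0.62 (unadjusted p = 0.0327) that was 0.38 without saline replicate 2 and 0.39 with the length correction. Its groups did not overlap.

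**Figure D4:**
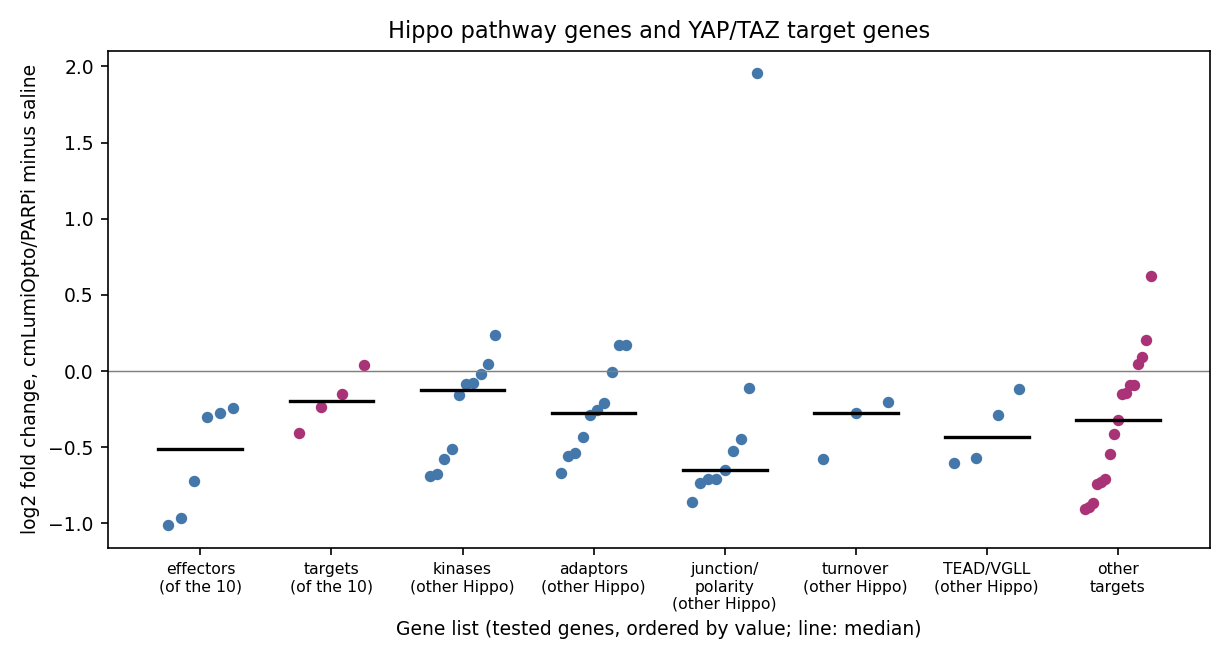
The log2 fold change (cmLumiOpto/PARPi minus saline) of each tested gene, 1 point a gene, in the pathway genes and targets among the 10 genes, the 36 other Hippo pathway genes by role and the 17 other targets, with the median of each as a line. Most points lie below 0, the junction and polarity genes lowest by their median of -0.65, and Crb3 (1.95) stands far above the rest.

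The fibroblast markers that were lower in the treated libraries shared that direction with Tead1, Amotl1 and Wwtr1, which mesenchymal cells also express. Within the saline group the order of the summed markers differed from that of these genes. The summed fibroblast markers had 5091 CPM in saline replicate 1 and 3505 CPM in saline replicate 2. In the same order Wwtr1 had 345 and 499.6 CPM, Amotl1 572 and 678 CPM and Tead1 139 and 151 CPM. In the treated group the sum and these genes were all higher in replicate 2. Most of the sum came from Col1a1, Col1a2 and Col3a1, with 2064, 1250 and 1407 CPM in saline replicate 1. The single markers did not share an order. Pdgfra had 212 and 243 CPM in saline and 132 and 144 CPM after treatment, and was higher in replicate 2 of both groups. Every other fibroblast marker was higher in saline replicate 1, and Dcn, Lum and Tcf21 were also higher in treated replicate 1. The part of fibroblasts in these differences was not tested. The genes whose profile over the 4 libraries came closest to that of Yap1, by the distance between log2 CPM values centred on each gene's mean, were Eri1 (0.0188), Trim45 (0.0202) and Fam107b (0.0255), and those closest to Ankrd1 were Zfpl1 (0.0218) and Cep126 (0.0301), the unnamed ENSMUSG00000120169 lying between them.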

How the data were processed

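RNA of lungs with 4T1 metastases was sequenced by the authors (Illumina, poly-T beads) in 2 saline and 2 cmLumiOpto/PARPi libraries, reads were mapped with HISAT2, and the authors deposited raw counts per gene, not normalized. The counter and the strand setting are not given in the sources used here. The methods name GRCm38 and the submitters' processing notes mm39. Of 52073 genes found in GENCODE M21 (GRCm38), 2.83% had the same position, so coordinates given here are those of GENCODE M21, matched by Ensembl identifier, and promoters those of RefSeq GRCm38.p6.

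From the counts, edgeR 4.0.16 was run over the whole table (TMM, filterByExpr with a minimum count of 10, quasi-likelihood test, Benjamini-Hochberg adjustment over 15167 genes, threshold 0.05). Standard errors are the log2 fold change over the square root of F, and 95% intervals use the moderated degrees of freedom. Distances use log2 CPM with a prior count of 2. The gene-length correction used a loess curve (span 0.5) of each library's log2 CPM deviations on log2 gene length, as offsets. Also run were DESeq2 1.42.0, the exact and the likelihood ratio test of edgeR, other scalings, the legacy option of the quasi-likelihood fit switched off, no filter, a block for the replicate number, and each library left out. The quasi-likelihood, exact, likelihood ratio, DESeq2, block and length-corrected fits were tested on simulated data. Without a simulated length trend, the exact, likelihood ratio, DESeq2 and block fits each gave a larger share of false calls than the quasi-likelihood test. The share of the latter was also above the nominal threshold. With a simulated length trend, the quasi-likelihood test without the length correction gave a larger share than all of these. With the correction its share was smaller, but still above the threshold.

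The 10 genes, the pathway and target lists and the markers were chosen from general knowledge with earlier results of these data known. Named from each further list were up to 4 genes in each direction with the smallest p and no overlap between the groups, and Tead2, Tead4, Amot, Lats1 and Lats2 always. Of the genes so named, 1 is not reported here. Lats2 and Ptpn14 are in both lists. Stk3, Stk4, Vgll1, Vgll2, Col1a1, Col1a2, Col3a1, Pdgfra, Dcn, Lum, Tcf21, Tnnt2 and Nppa were named after their values were seen. Other marker lists, summed in CPM over saline and then treated libraries, were endothelium (396 to 499.6, 398 to 724), alveolar type 2 (424 to 1605, 2809 to 7937), alveolar type 1 (132 to 312, 431 to 878), airway ciliated (5.52 to 11.2, 33.4 to 62.0), smooth muscle (171 to 212, 139 to 181), skeletal muscle (7.77 to 9.60, 5.93 to 9.27), mesothelium (136 to 231, 215 to 224), alveolar macrophage (127 to 433, 102 to 139) and leukocyte (331 to 598, 429 to 705). Nothing says whether the libraries of a group come from separate mice, so p-values measure the spread between these libraries. The chi-square statistic per degree of freedom was 17.5 between the saline libraries and 29.9 between the treated ones, so neither pair is 1 library deposited as a pair. The floor of 3 counts covers counting error only.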

Additional observations from a re-analysis of the deposited data

How the results depend on the processing

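Yap1, Wwtr1, Tead1, Tead3, Amotl1, Amotl2, Ankrd1 and Axl kept a log2 fold change below 0 under all 15 alternatives, with Tead1 between -1.07 and -0.68 and Amotl1 between -1.14 and -0.80, but Amotl2 came as near 0 as -0.028 (without saline replicate 2), Ankrd1 as -0.038 (without treated replicate 1) and Yap1 as -0.05 (length correction). Ccn1 turned to -0.27 with the length correction and to -0.26 with that correction and the block. Leaving out 1 library each, Ccn1 ranged from -0.11 (without saline replicate 1) to 0.18, with -0.02 without treated replicate 2. Ccn2 ranged from -0.81 to 0.11 (without saline replicate 2) and Lats2 from -0.028 (without treated replicate 1) to 0.10. Upper-quartile scaling moved the median of all genes from 0.02 to 0.13 and the share below 0 from 48% to 39.3%, and the length correction moved that share to 55.7%. The medians of the Hippo and target lists, -0.36 and -0.32, were -0.26 and -0.21 with upper-quartile scaling and -0.27 and -0.43 with the length correction, with or without the block, and that of the Hippo list -0.29 with library totals only. The causes were not tested.

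The count of genes past the adjusted threshold, 0 in the quasi-likelihood test, was 2000 without the filter, 1011 with DESeq2, 815 with the exact test and 865 with the likelihood ratio test, with 3, 2, 2 and 2 of the 10 genes among them. It was 0 with the other scalings, the legacy option off and the length correction alone. Leaving out 1 library each gave 0 to 31 genes (31 without saline replicate 1) and 0 of the 10. A lone library is there assumed to vary like the other group. The lower genes at an unadjusted p under 0.05 then numbered 2 to 5 of the 10, 8 to 14 of the Hippo list and 5 to 8 of the targets, with list medians of -0.43 to -0.38 and -0.59 to -0.31.

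The groups share replicate numbers, but no label says that a number marks a pair, and the deviations of same-numbered libraries correlated across genes with a Spearman's rho of 0.298 (2 pairs, and genes are not replicates). In the fit with the replicate block 1822 genes passed (12% of all tested genes). Among them were Wwtr1, Tead1 and Amotl1 (adjusted p 0.0203, 0.00926 and 0.0104, edgeR's quasi-likelihood test), 13 of the Hippo list and 6 targets. With the block and the length correction 1256 passed (8.28%), 3 of the 10 among them. In that fit 5 of the 10 were lower at an unadjusted p under 0.05, against 16.5% of all tested genes. Depth limits Crb3, whose lowest value was 0.545 CPM, more than the 10 genes, all of which lay above 15 CPM.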
